A study of Arabidopsis thaliana with 24 samples.

Results

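Flavonoids are the pigments and sunscreens that Arabidopsis seedlings make when they meet light, and 10 genes for transcription factors and partners that switch their synthesis on or off are described here. They were chosen by gene identifier and make up 10 of the 33557 genes in each of the 6 deposited tables. MYB11, MYB12 and MYB111 encode R2R3-MYB factors that turn on the early enzymes and flavonol synthesis. MYB75 (PAP1) and MYB90 (PAP2) are R2R3-MYB activators of anthocyanin genes. TT8, GL3 and EGL3 are basic helix-loop-helix (bHLH) proteins that join such a MYB, and TTG1 is the WD40 repeat protein that completes the MYB-bHLH-WD40 complex, which drives the late anthocyanin enzymes and, with other MYB proteins, trichome and root hair patterning. MYBL2 is a single-repeat MYB that binds the bHLH partner and represses anthocyanin genes. The flavonol MYBs work without a bHLH partner.

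The study compared mRNA of separated cotyledons and hypocotyls, with 3 biological repeats for each of 8 groups. Wild type cotyledons and hypocotyls given 1 h or 6 h of white light, and cotyledons and hypocotyls of the pifq mutant kept dark, were set against wild type cotyledons and hypocotyls kept dark. In every group germination was started by white light for 3 h (70 µmol, photon flux) and a far-red pulse of 5 min (2 µmol), and the seedlings were then 4 days in darkness. The later white light was also 70 µmol. pifq is a quadruple mutant of the phytochrome-interacting factors PIF1, PIF3, PIF4 and PIF5, bHLH proteins that hold seedlings in their dark form, and no pifq sample was given light. Each deposited value is 1 FPKM (fragments per kilobase of transcript, scaled to library size) for a whole group, so no value of a single sample can be shown and the depth behind each value is unknown.

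MicroRNA pairing stretches are shown as a description of the MYB members. The microRNA miR858a is known to pair with flavonol MYB messages, and miR828 with messages of the MYB75 family. Mature sequences were read from the RefSeq TAIR10.1 genome with the seed, bases 2 to 8, in capitals. Below them stand the best matching coding stretches, written as DNA, with bases that form Watson-Crick pairs in capitals.
miR858a: uUUCGUUGucuguucgaccuu
miR828: uCUUGCUUaaaugaguauucca
MYB11, miR858a: cgGGaaGAACAGACAACGAAA
MYB12, miR858a: cAGGgaGAACAGACAACGAAA
MYB111, miR858a: cAGGaaGAACAGACAACGAAA
MYBL2, miR858a: cAGGaCGAACcGACAACGAAg
MYB75, miR828: TGGAAcACTCATcTgAGtAAGA
MYB90, miR828: TGGAAcACcCATcTgAGtAAaA
MYB11, MYB12 and MYB111 had 17, 18 and 18 pairs of 21 with miR858a, all 7 seed bases included, at the same place, coding base 290. The repressor MYBL2 also paired with all 7 seed bases, and had 17 pairs of 21 at coding base 194. MYB75 and MYB90 reached only 12 and 13 pairs with miR858a, and their best stretches for miR828 had 18 and 16 pairs of 22 at coding base 310. MYB11, MYB12 and MYB111 had 16, 15 and 14 pairs of 22 with miR828, so this count did not separate MYB90 from MYB11. A match of letters is a description and does not show that a message was cut. The miR858a precursor gene was listed at 0 in every group except hypocotyls after 6 h of light, at 0.228 FPKM, and the miR828 precursor gene at 0 in every group except cotyledons after 1 h of light, at 13.4 FPKM. Neither was tested, and mRNA libraries do not measure mature microRNAs.

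HY5, a light-activated bZIP factor, and the PIF proteins are known to bind DNA letters built on an ACGT core, above all the G-box CACGTG. It was searched, on both strands, in the 300 bases from 250 before to 50 after each deposited gene start (build TAIR10, sequence from RefSeq TAIR10.1). MYB12, MYB75 and MYB90 held a G-box, and 7.03% of 28625 such windows did. ACGT alone, which every G-box contains, stood in 8 of the 10 members and in 47.9% of windows. CATGTG, another PIF-binding hexamer, stood in 1 member, MYB90, and in 11.8% of windows. The 30 bases around each member's G-box, and around the ACGT cores of MYB111, which had none, follow with ACGT cores and G-boxes in capitals.
MYB12, chr2:19476196-19476225, plus strand: tcttacaccacaCACGTGtcatcatctcct
MYB75, chr1:21235223-21235252, minus strand: ccttttttccgtCACGTGtttttataaatt
MYB90, chr1:24763883-24763912, plus strand: tcctatgcccttCACGTGtatatatatacc
MYB111, chr5:20001536-20001565, minus strand: tagaaggagaggtACGTggagtgtcttatg
MYB111, chr5:20001470-20001499, minus strand: taattccaccgcaACGTggttcattccttc
The G-boxes began 129, 103 and 62 bases before the deposited starts of MYB12, MYB75 and MYB90. MYB75 and MYB90 also shared an identical run of 27 bases, aaatgtggatatcaaacatgcACGTca, which began 145 bases before the start in MYB75 and 104 before it in MYB90. Their coding sequences were 84.3% identical over 747 aligned bases. RefSeq places the start of MYB75 155 bases and that of MYB111 194 bases further upstream than the deposited annotation, so the stretches shown for both genes lie inside the RefSeq transcript. In the MYB12 gene the G-box and a second core stood close together within the 239 bases upstream of both annotated starts, chr2:19476087-19476325, shown because MYB12 had the largest fold of the flavonol MYBs in light.
MYB12 upstream: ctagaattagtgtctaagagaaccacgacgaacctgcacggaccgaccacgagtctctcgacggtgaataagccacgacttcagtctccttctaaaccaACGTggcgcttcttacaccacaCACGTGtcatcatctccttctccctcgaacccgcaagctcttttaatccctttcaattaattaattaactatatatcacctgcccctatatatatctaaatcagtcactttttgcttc

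The labelled organs could be told from marker genes. Of the dark wild type groups, 8 cotyledon blade and stomatal lineage markers summed to 224 FPKM in cotyledons and 14.6 FPKM in hypocotyls, and 8 elongating hypocotyl markers summed to 19.9 FPKM in cotyledons and 1071 FPKM in hypocotyls. Cotyledon and hypocotyl values come from separate tables, normalized apart, so levels set side by side across organs are approximate. A gene is called higher or lower where the authors' q-value is under 0.05 and their test status is OK, and a ratio is given as log2 with a standard error (SE) recovered from the authors' statistic. The median log2 ratio of all tested genes lay between -0.03 and 0.04 except in hypocotyls after 6 h of light, where it was -0.13; ratios there are given unshifted. Because tissue pieces were sequenced in bulk, fewer cells of a type and less RNA per cell cannot be told apart.

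After 1 h of light 5 of 9 tested members were higher in cotyledons and 5 of 8 were higher in hypocotyls, against backgrounds of 10.6% and 10% of all tested genes. MYB12, MYB111, MYB75 and GL3 were called higher in both organs at 1 h. MYBL2 was lower in both at 1 h, the only member called so, against 8.45% of genes lower in cotyledons and 5.14% in hypocotyls. After 6 h of light 7 of 10 tested members were higher and none lower in cotyledons, where 24% of all tested genes were higher and 19.8% lower. In hypocotyls at 6 h, 4 of 9 were higher and MYBL2 was lower, where 17.3% and 22% of all genes were. MYBL2 was higher in cotyledons and lower in hypocotyls at that time.

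**Figure D1:**
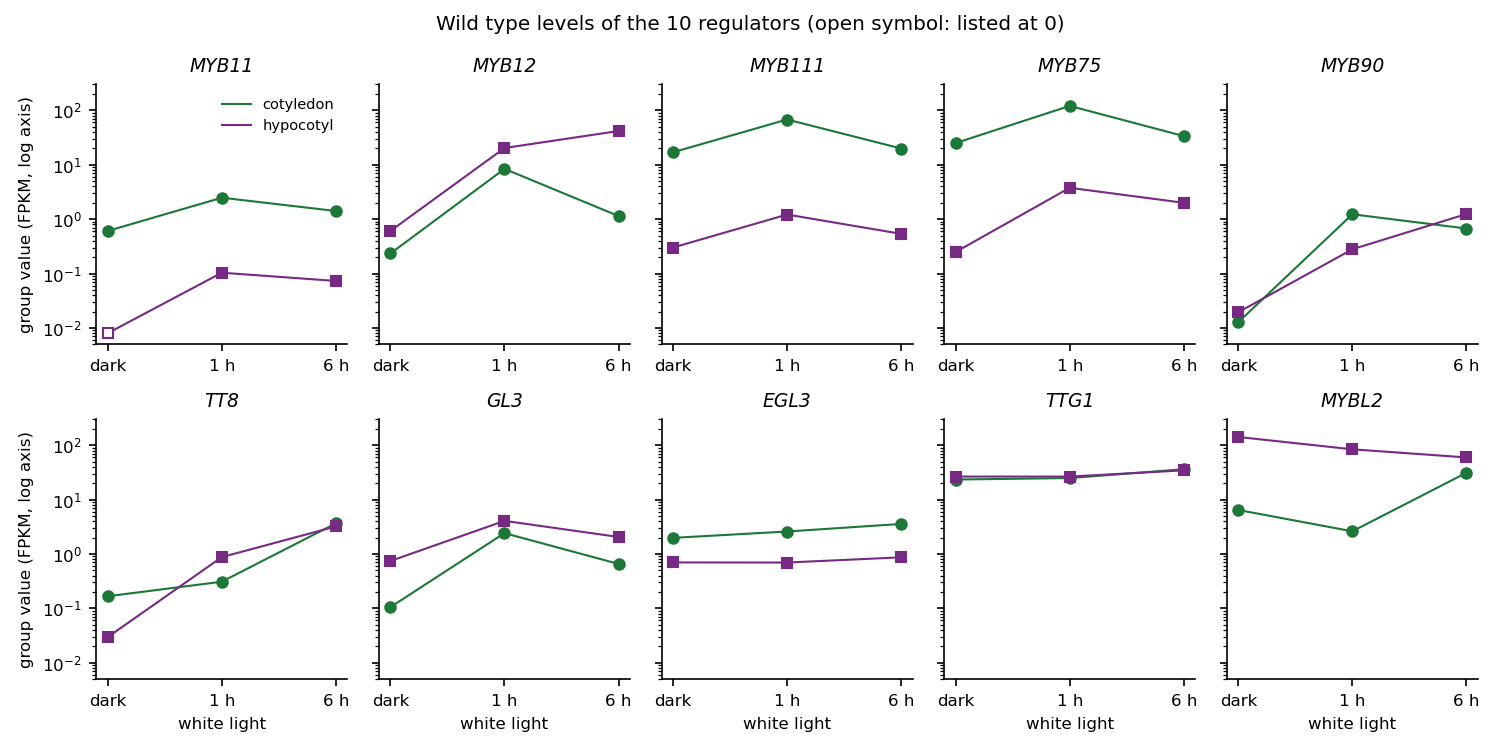
Group values in FPKM on a log axis for the 10 regulators in wild type, kept dark or given 1 h or 6 h of white light, with green circles for cotyledons and purple squares for hypocotyls; each point is 1 deposited value for 3 samples, without error. MYB111 and MYB75 peaked at 1 h in cotyledons at 68.1 and 121 FPKM, MYB12 reached 41.8 FPKM in hypocotyls at 6 h, and the MYBL2 lines both ran down to 1 h, after which only the cotyledon line ran up, to 31.2 FPKM.

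Among the flavonol MYBs, MYB12 (AT2G47460, chr2:19476337-19479478) had the largest light ratio. In cotyledons it stood at 0.234 FPKM in the dark, 8.42 FPKM after 1 h and 1.14 FPKM after 6 h. Hypocotyl levels were 0.607 FPKM in the dark, 20.4 FPKM after 1 h and 41.8 FPKM after 6 h. The cotyledon value at 6 h was thus well under that at 1 h, while the hypocotyl value was the highest of the 3. Its log2 ratio to dark was 5.17 (SE 0.76) at 1 h and 2.29 (SE 0.84) at 6 h in cotyledons, with q-values of 0.000332 and 0.00452 in the authors' deposited tables. In hypocotyls it was 5.07 (SE 0.59) at 1 h and 6.11 (SE 0.57) at 6 h, both with q = 0.000364 in the authors' deposited tables. The cotyledon decline between 1 h and 6 h did not pass the test of that difference after adjustment, at -2.88 on the log2 scale (95% interval -5.09 to -0.67). That test is conservative, since both of its SEs hold the error of the shared dark group.

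MYB111 (AT5G49330, chr5:19998952-20001378) was the abundant flavonol MYB of cotyledons. Cotyledon levels were 17.0 FPKM in the dark, 68.1 FPKM after 1 h and 19.9 FPKM after 6 h. In hypocotyls it stood at 0.301 FPKM in the dark, 1.22 FPKM after 1 h and 0.537 FPKM after 6 h, far below the cotyledon values throughout. At 1 h it was higher in both, by a log2 ratio of 2.00 (SE 0.35) in cotyledons and 2.02 (SE 0.78) in hypocotyls, where the call was lost with a normal p from the deposited statistic. At 6 h it was called in neither organ, with q = 0.481 in cotyledons and q = 0.278 in hypocotyls in the authors' deposited tables. In cotyledons the response at 6 h was smaller than that at 1 h, by -1.77 on the log2 scale (95% interval -2.75 to -0.79), which passed the test of that difference at 0.05 and not at 0.01.

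MYB11 (AT3G62610, chr3:23154758-23156585) was the least abundant of the flavonol MYBs in cotyledons after 1 h of light. It had 0.608 FPKM in the dark, 2.48 FPKM after 1 h and 1.41 FPKM after 6 h in cotyledons, and was called higher at both times. Its log2 ratios were 2.03 (SE 0.73) and 1.22 (SE 0.77), with q = 0.000624 and q = 0.0449 in the authors' deposited tables; both calls were lost with a normal p from the deposited statistic. In hypocotyls it was listed at 0 in the dark, 0.104 FPKM after 1 h and 0.0730 FPKM after 6 h, and was not tested. Summed over the flavonol MYBs, cotyledons held 17.9, 79.0 and 22.5 FPKM in the dark, at 1 h and at 6 h, of which MYB111 made up 95.3%, 86.2% and 88.7%. Hypocotyls held 0.908, 21.7 and 42.4 FPKM at the same times, of which MYB12 made up 66.9%, 93.9% and 98.6%. The organs thus differed in which of these 3 genes supplied most of the message.

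Of the anthocyanin activators, MYB75 (AT1G56650, chr1:21233595-21235137) was the most abundant member in dark cotyledons and in cotyledons after 1 h of light. Its cotyledon levels were 25.1 FPKM in the dark, 121 FPKM after 1 h and 33.8 FPKM after 6 h. Hypocotyl levels were 0.249 FPKM in the dark, 3.78 FPKM after 1 h and 2.00 FPKM after 6 h. At 1 h it was higher by a log2 ratio of 2.27 (SE 0.35) in cotyledons, with q = 0.000332 in the authors' deposited table, and by 3.92 (SE 0.93) in hypocotyls, with q = 0.000364 there. At 6 h it was higher in hypocotyls, at 3.00 (SE 0.97), and not called in cotyledons, at 0.43 (SE 0.35) with q = 0.138 in the authors' deposited table. In cotyledons the 6 h response was smaller than the 1 h response by -1.84 (95% interval -2.82 to -0.87), which passed at 0.05 and not at 0.01.

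MYB90 (AT1G66390, chr1:24763957-24765541), its close relative, was never called. It had 0.0127 FPKM in the dark, 1.23 FPKM after 1 h and 0.673 FPKM after 6 h in cotyledons, and 0.0194, 0.279 and 1.24 FPKM at the same times in hypocotyls. Log2 ratios of 6.59 (SE 4.24) and 5.72 (SE 4.26) in cotyledons and 6.00 (SE 2.86) in hypocotyls at 6 h had q-values of 0.279, 0.279 and 0.334 in the authors' deposited tables. The wide SEs set no useful bound on its change. MYB113 and MYB114, which lie near MYB90 on chromosome 1 and belong to its clade, were listed at 0 in every group except MYB114 in hypocotyls at 6 h, at 0.149 FPKM, and neither was tested. MYB90 and MYB114 had 91.2% identical coding bases and an unbroken identical run of 67 bases, so reads of these genes may have been assigned to either.

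The bHLH partners behaved differently from each other. GL3 (AT5G41315, chr5:16529455-16532879) was higher in light in both organs at both times. Cotyledon levels were 0.106 FPKM in the dark, 2.42 FPKM after 1 h and 0.656 FPKM after 6 h, and hypocotyl levels were 0.743, 4.07 and 2.06 FPKM. The log2 ratios were 4.52 (SE 0.93) and 2.64 (SE 1.00) in cotyledons and 2.45 (SE 0.54) and 1.47 (SE 0.55) in hypocotyls, for 1 h and then 6 h. EGL3 (AT1G63650, chr1:23599413-23602902), whose coding sequence was 80.5% identical to that of GL3, stood at 1.98 FPKM in the dark, 2.59 FPKM after 1 h and 3.57 FPKM after 6 h in cotyledons. It was called only in cotyledons at 6 h, at a log2 ratio of 0.85 (SE 0.48) and q = 0.0160 in the authors' deposited table, a call lost with a normal p from the deposited statistic. In hypocotyls it held 0.700 FPKM in the dark, 0.696 FPKM after 1 h and 0.869 FPKM after 6 h, and was not called.

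TT8 (AT4G09820, chr4:6182023-6186493) came later than GL3 in the levels. It had 0.167 FPKM in the dark, 0.309 FPKM after 1 h and 3.66 FPKM after 6 h in cotyledons, and was not tested at 1 h. Its hypocotyl levels were 0.0297 FPKM in the dark, 0.877 FPKM after 1 h and 3.21 FPKM after 6 h. It was higher in cotyledons at 6 h by 4.46 (SE 0.89) and in hypocotyls by 4.89 (SE 1.54) at 1 h and 6.76 (SE 1.50) at 6 h, all on the log2 scale. In both hypocotyl tables q was 0.0349 in the authors' deposited tables, from the same p of 0.0095; at 1 h the call was lost when the p-values were adjusted within that table alone. These ratios rest on dark levels near 0: with 1 FPKM added to both groups they were 2.00 in cotyledons at 6 h, and 0.87 at 1 h and 2.03 at 6 h in hypocotyls. EGL3 made up 87.9% of the summed bHLH level of 2.25 FPKM in dark cotyledons, and TT8 46.4% of 7.90 FPKM in cotyledons after 6 h of light. TTG1 (AT5G24520, chr5:8370587-8372847), the shared WD40 subunit, was the steadiest member, between 19.3 and 36.3 FPKM over the 8 groups. It was called only in cotyledons after 6 h of light, at 36.3 FPKM against 23.4 FPKM in the dark, a log2 ratio of 0.63 (SE 0.37) with q = 0.0148 in the authors' deposited table; a normal p from the deposited statistic did not call it.

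The repressor MYBL2 (AT1G71030, chr1:26795123-26796364) was the most abundant member in dark hypocotyls. Its hypocotyl levels were 142 FPKM in the dark, 84.3 FPKM after 1 h and 59.8 FPKM after 6 h. In cotyledons it stood at 6.45 FPKM in the dark, 2.62 FPKM after 1 h and 31.2 FPKM after 6 h. Log2 ratios were -1.30 (SE 0.57) at 1 h and 2.27 (SE 0.46) at 6 h in cotyledons, with q = 0.00141 and q = 0.000332 in the authors' deposited tables. In hypocotyls they were -0.75 (SE 0.39) at 1 h and -1.25 (SE 0.40) at 6 h, with q = 0.00430 and q = 0.000364 in the authors' deposited tables. Both calls of lower MYBL2 at 1 h were lost when a normal p was taken from the deposited statistic. The turn in cotyledons between 1 h and 6 h was 3.58 (95% interval 2.14 to 5.01), which passed the test of that difference. In hypocotyls after 6 h of light all 8 elongating hypocotyl markers were lower, where 22% of all tested genes were. They summed to 75.1 FPKM against 1071 FPKM in the dark. The blade and stomatal markers summed to 12.7 FPKM against 14.6 FPKM in the dark. The part of both lists in the MYBL2 result was not tested. MYBL2 made up 82.9% of the summed level of all 10 members in dark hypocotyls and 40.9% after 6 h of light.

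**Figure D2:**
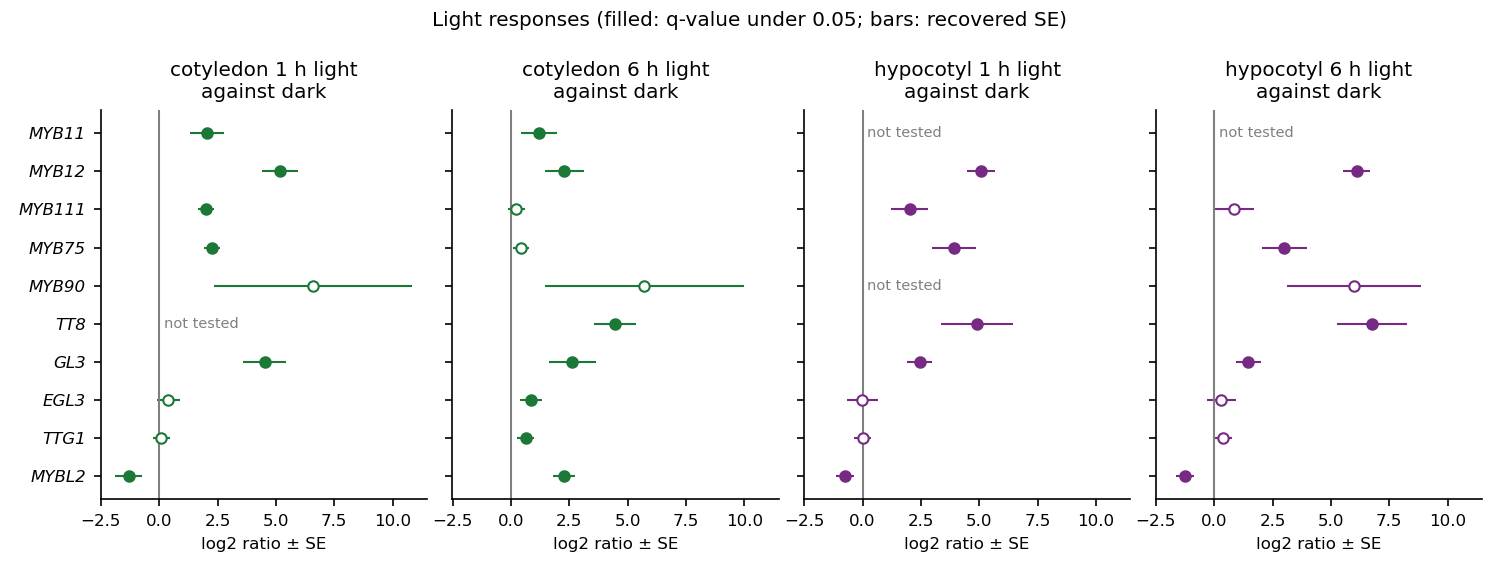
Log2 ratios of light to dark in wild type for the 10 regulators, in 4 panels for cotyledons (green) and hypocotyls (purple) at 1 h and 6 h, with bars of 1 recovered SE and filled points where the authors' q-value is under 0.05. MYB12 lies near 5 in both 1 h panels, TTG1 near 0 in both, and MYBL2 is on opposite sides of 0 in the 6 h panels.

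The difference between organs was tested on the ratios, by a normal approximation from the recovered SEs with adjustment over all genes; with 3 samples behind each group value and no sample values, no exact test could be run, and intervals stand here in place of p-values. Of 7 members tested in both organs at 1 h none differed at an adjusted p under 0.05, where 0.459% of all tested genes did. No member of the 7 had an unadjusted p under 0.05, and the 95% intervals were wide, for example -1.78 to 1.99 for MYB12. At 6 h, 2 of 9 differed, against 12.6% of all tested genes. MYB12 had the smaller ratio in cotyledons, 2.29 against 6.11 in hypocotyls, a difference of -3.82 (95% interval -5.80 to -1.83). MYBL2 differed by 3.52 (95% interval 2.33 to 4.72), its directions being opposite in the organs. The difference of MYB75, -2.58 (95% interval -4.60 to -0.56), did not pass after adjustment. When SEs were taken from the deposited p-values instead, MYB12 no longer passed and MYB75 did. The deposited p of MYB12 in hypocotyls at 6 h is the smallest in that table, which keeps its SE from being smaller. This alternative therefore cannot decide whether the MYB12 difference holds. Between 6 h and 1 h, 3 of 9 members differed in cotyledons, where 3.39% of all tested genes did, and none of 8 in hypocotyls, where 4.04% did. None of those 8 hypocotyl members had an unadjusted p under 0.05. The test between times is conservative, because both ratios hold the error of the same dark group.

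**Figure D3:**
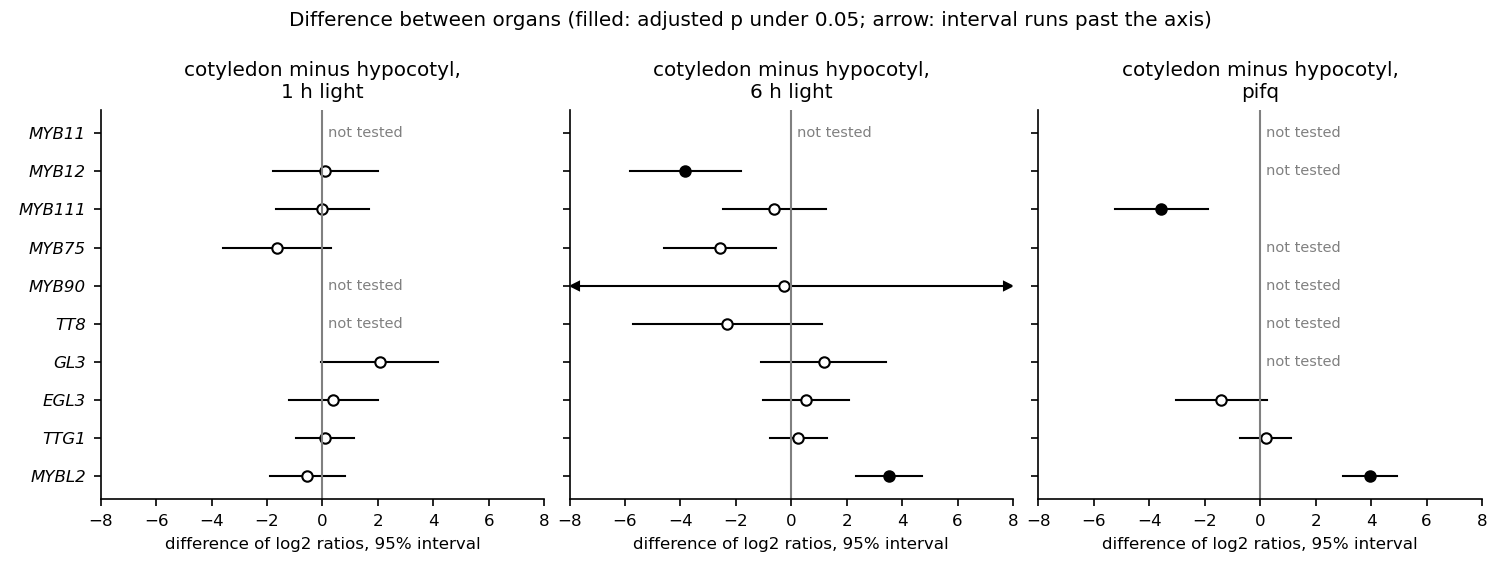
Cotyledon minus hypocotyl difference of log2 ratios for the 10 regulators in 3 panels (1 h of light, 6 h of light, pifq), with 95% intervals from the recovered SEs and filled points where the adjusted p is under 0.05. MYB12 at -3.82 and MYBL2 at 3.52 stand out at 6 h, and MYB111 at -3.57 and MYBL2 at 3.96 in pifq.

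Genes of the enzymes that these regulators act on were looked at next, in lists chosen by function. Of 12 early flavonoid and flavonol genes, 11 were tested in each light table. In cotyledons 9 rose at 1 h and 10 at 6 h, with median log2 ratios of 2.22 and 2.10, beside 0.03 for all tested genes at both times. Hypocotyls showed 10 higher at 1 h and 10 at 6 h, with medians of 3.35 and 5.20, beside 0.04 and -0.13 for all tested genes. CHS, chalcone synthase, the entry enzyme, reached 2815 FPKM in hypocotyls after 6 h of light, against 1.47 FPKM in dark ones, a log2 ratio of 10.91 (SE 0.56). FLS1, flavonol synthase, stood at 411 FPKM there after 6 h of light, against 0.227 FPKM in dark hypocotyls. F3H, flavanone 3-hydroxylase, and CHI, chalcone isomerase, were higher in all 4 light tables. In cotyledons at 1 h F3H had 420 FPKM in light and 35.8 FPKM in darkness, and CHI had 191 FPKM in light and 24.7 FPKM in darkness. The exception among the called genes was FLS3, which was lower in hypocotyls at 6 h, at 22.1 FPKM against 45.5 FPKM in the dark, a call lost once ratios were centred on the median gene.

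Anthocyanin and proanthocyanidin genes were later. Of 13, 3 of 11 tested rose in cotyledons at 1 h and 9 of 10 at 6 h. In hypocotyls 2 of 7 tested rose at 1 h and 7 of 11 at 6 h, and none fell in either organ. The shares of all tested genes called higher at 1 h and 6 h were 10.6% and 24% in cotyledons. In hypocotyls they were 10% and 17.3%. Median finite log2 ratios of the tested late genes at these times were 0.26 and 5.15 in cotyledons, and 0.29 and 5.21 in hypocotyls. With 1 FPKM added to both groups the 6 h medians over all 13 were 4.14 in cotyledons and 2.25 in hypocotyls. The 13 summed to 559 FPKM in cotyledons and 118 FPKM in hypocotyls at 6 h. DFR, dihydroflavonol reductase, had 0.736 FPKM in cotyledons after 1 h of light, against 0.672 FPKM in the dark, and was not called. After 6 h it had 117 FPKM, a log2 ratio of 7.44 (SE 0.71). LDOX, the next enzyme, had 1.64 FPKM in cotyledons after 1 h of light and 103 FPKM after 6 h, against 1.53 FPKM in the dark. In hypocotyls at 6 h DFR had 10.2 FPKM and LDOX 9.06 FPKM, against 0.0110 and 0.0343 FPKM in the dark. Neither was called, with q = 0.300 and q = 0.423 in the authors' deposited table. Their log2 ratios were 9.86 (SE 3.53) and 8.05 (SE 2.14), and a normal p from the deposited statistic called both higher. Whether they count as higher thus depends on the test. SCPL10 and GSTF12, a serine carboxypeptidase-like acyltransferase gene and a glutathione S-transferase needed for anthocyanin transport, were among those already called higher at 1 h in both organs. With a normal p from the deposited statistic, late genes higher at 1 h fell to 1 in each organ, and the GSTF12 call in cotyledons, at a log2 ratio of 1.64 (SE 0.68), was lost; in dark hypocotyls GSTF12 was listed at 0, so no such p could be taken there. In cotyledons most of these late genes were low at 1 h, when MYB75 was highest, and rose at 6 h. TT8, EGL3, TTG1 and MYBL2 were called higher there at 6 h and not at 1 h. Of these, TT8 was not tested at 1 h and MYBL2 was lower. A link between these regulators and the late genes was not tested.

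Other regulators moved as well. HY5 had 267 FPKM in cotyledons after 1 h of light, against 95.3 FPKM in the dark, and 311 FPKM in hypocotyls after 1 h, against 43.8 FPKM in the dark; both were called higher. At 6 h HY5 was lower in cotyledons, at 45.4 FPKM, and still higher in hypocotyls, at 106 FPKM. HYH, the HY5 homolog, was higher in all 4 light tables, at 363 FPKM in cotyledons and 116 FPKM in hypocotyls after 1 h, against 119 and 6.74 FPKM in the dark. MYC1 and TTG2, a bHLH related to GL3 and a WRKY target of the complex, were higher at 6 h in both organs, the hypocotyl call of TTG2 being lost with a normal p from the deposited statistic. TT2, MYB5, TT1 and TT16, known for seed coat, were not tested in any light table. All 14 listed repressors were tested in cotyledons, where 6 were higher and 2 lower at 1 h, and 8 higher and 2 lower at 6 h, beside the shares of 10.6%, 8.45%, 24% and 19.8% of all tested genes. With a normal p from the deposited statistic these counts were 2 and 0 at 1 h and 5 and 1 at 6 h. Hypocotyls had 12 tested, with 4 higher and none lower at 1 h, and 4 higher and 1 lower at 6 h. The shares of all tested genes higher and lower there were 10% and 5.14% at 1 h, and 17.3% and 22% at 6 h. Under that alternative hypocotyls had 1 repressor higher at 1 h, and 2 higher and 0 lower at 6 h. MYB4, a repressor of phenylpropanoid genes, was higher in each light table, with the hypocotyl call at 1 h lost under that alternative, for example at 30.7 FPKM after 1 h of light and 8.17 FPKM in the dark in cotyledons. ETC3 and TRY, single-repeat MYBs that compete for bHLH partners, had 183 and 14.8 FPKM in cotyledons after 6 h of light, against 19.9 and 1.20 FPKM in the dark. ETC1, from the same list, went the other way there, at 3.03 FPKM against 16.9 FPKM in the dark, a log2 ratio of -2.48 (SE 0.77).

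**Figure D4:**
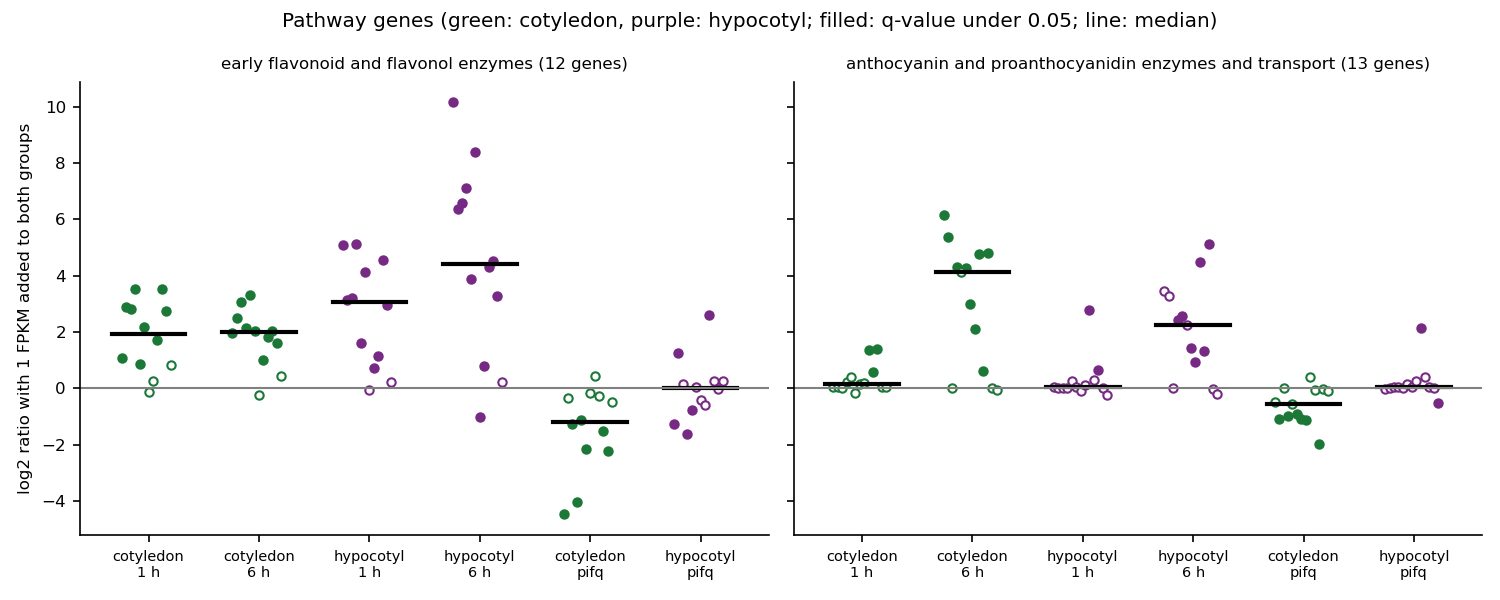
Log2 ratios, with 1 FPKM added to both groups, of 12 early flavonoid and flavonol genes (left) and 13 anthocyanin and proanthocyanidin genes (right) in the 6 comparisons, green for cotyledons and purple for hypocotyls; each point is a gene, filled where called, and the line is the list's median. Of 11 tested early genes 9 are filled and above 0 in cotyledons at 1 h and 10 in each other light comparison, with FLS3 filled and below 0 in hypocotyls at 6 h; filled late genes number 3 and 2 at 1 h and 9 and 7 at 6 h in cotyledons and hypocotyls.

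In darkness, pifq cotyledons had lower MYB75 and MYB111 and higher MYBL2 than wild type cotyledons, and pifq hypocotyls had lower MYBL2 and MYB12 and higher GL3. The labels do not state which samples the wild type columns of the mutant tables hold. In pifq cotyledons 2 of 6 tested members were lower and 1 higher, where 5.66% and 4.79% of all tested genes were. In pifq hypocotyls 2 of 6 were lower and 1 higher, where 14.5% and 13% of all tested genes were. The mutant check comes first. PIF3 had 0.623 FPKM in pifq cotyledons and 64.7 FPKM in wild type cotyledons, and 2.16 FPKM in pifq hypocotyls and 37.6 FPKM in wild type hypocotyls. PIF5 was lower in hypocotyls alone, at 8.66 FPKM in pifq and 21.5 FPKM in wild type, PIF4 was higher in both organs, and PIF1 was called in neither; reads outside a disrupted stretch check nothing.

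MYB75 was at 0.486 FPKM in pifq cotyledons and 31.7 FPKM in wild type cotyledons. The log2 ratio was -6.03 (SE 0.63), 65.2-fold higher in wild type. In hypocotyls both groups were low, at 0.308 FPKM in pifq and 0.261 FPKM in wild type, and it was not tested. MYB111 had 2.75 FPKM in pifq cotyledons and 18.8 FPKM in wild type cotyledons, a log2 ratio of -2.77 (SE 0.40) with q = 7.67e-10 in the authors' deposited table. In hypocotyls MYB111 was not called, at 0.583 FPKM in pifq and 0.335 FPKM in wild type. The organ difference of MYB111 was -3.57 (95% interval -5.25 to -1.89), and was not tested where 1 FPKM was required, since both hypocotyl values lie under it. MYB11 was listed at 0 in pifq cotyledons and at 0.809 FPKM in wild type cotyledons, with q = 0.0685 in the authors' deposited table, and at 0 in both hypocotyl groups. MYB12 was lower in pifq hypocotyls, at 0.134 FPKM against 0.703 FPKM in wild type, a log2 ratio of -2.39 (SE 0.84) with q = 0.0207 in the authors' deposited table, and was not tested in cotyledons, at 0.0946 FPKM in pifq and 0.277 FPKM in wild type.

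MYBL2 again went opposite ways in the organs. It had 34.1 FPKM in pifq cotyledons and 8.19 FPKM in wild type cotyledons, a log2 ratio of 2.06 (SE 0.41) with q = 1.64e-05 in the authors' deposited table. In hypocotyls it had 41.8 FPKM in pifq and 156 FPKM in wild type, a log2 ratio of -1.90 (SE 0.30) with q = 4.03e-09 in the authors' deposited table. The difference between organs was 3.96 (95% interval 2.97 to 4.94), which passed the test. Of 4 members tested for an organ difference in pifq 2 differed, against 11.4% of all tested genes.

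Some markers of the other organ were also called higher in pifq, and others were not called. In cotyledons 2 of 8 tested elongating hypocotyl markers, XTH18 and XTH19, were higher in pifq, where 4.79% of all tested genes were. The 8 summed to 93.0 FPKM in pifq and 21.2 FPKM in wild type, and none was at 0. XTH19 alone had 71.4 FPKM in pifq and 11.1 FPKM in wild type. In hypocotyls 3 of 6 tested blade and stomatal markers, SPCH, TMM and FIL, were higher in pifq, where 13% of all tested genes were. All 8 on that list summed to 15.3 FPKM in pifq and 16.3 FPKM in wild type, with 1, MUTE, at 0 in wild type. Their part in the pifq results was not tested. In cotyledons after 6 h of light, where MYBL2 was also higher, the hypocotyl list summed to 17.9 FPKM, against 19.9 FPKM in the dark. Within it SAUR20 was higher and XTH19 lower. The blade and stomatal list summed to 298 FPKM there, against 224 FPKM in the dark. Of its 8 tested markers 5 were higher, where 24% of all tested genes were. The part of both lists in the MYBL2 result was not tested.

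GL3 was higher in pifq hypocotyls, at 2.19 FPKM against 0.804 FPKM in wild type, with q = 0.0177 in the authors' deposited table, and EGL3 had 2.11 FPKM in pifq and 0.764 FPKM in wild type, not called at q = 0.0683 in the authors' deposited table. In cotyledons EGL3 had 2.23 FPKM in pifq and 2.13 FPKM in wild type. GL3 in cotyledons, at 0.224 FPKM in pifq and 0.112 FPKM in wild type, was not tested. TT8 and MYB90 were not tested in either organ, and the highest of their values was 0.169 FPKM, for TT8 in wild type cotyledons. TTG1 had 19.4 FPKM in pifq and 20.5 FPKM in wild type cotyledons, and 19.3 FPKM in pifq and 23.2 FPKM in wild type hypocotyls; it was called in neither.

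**Figure D5:**
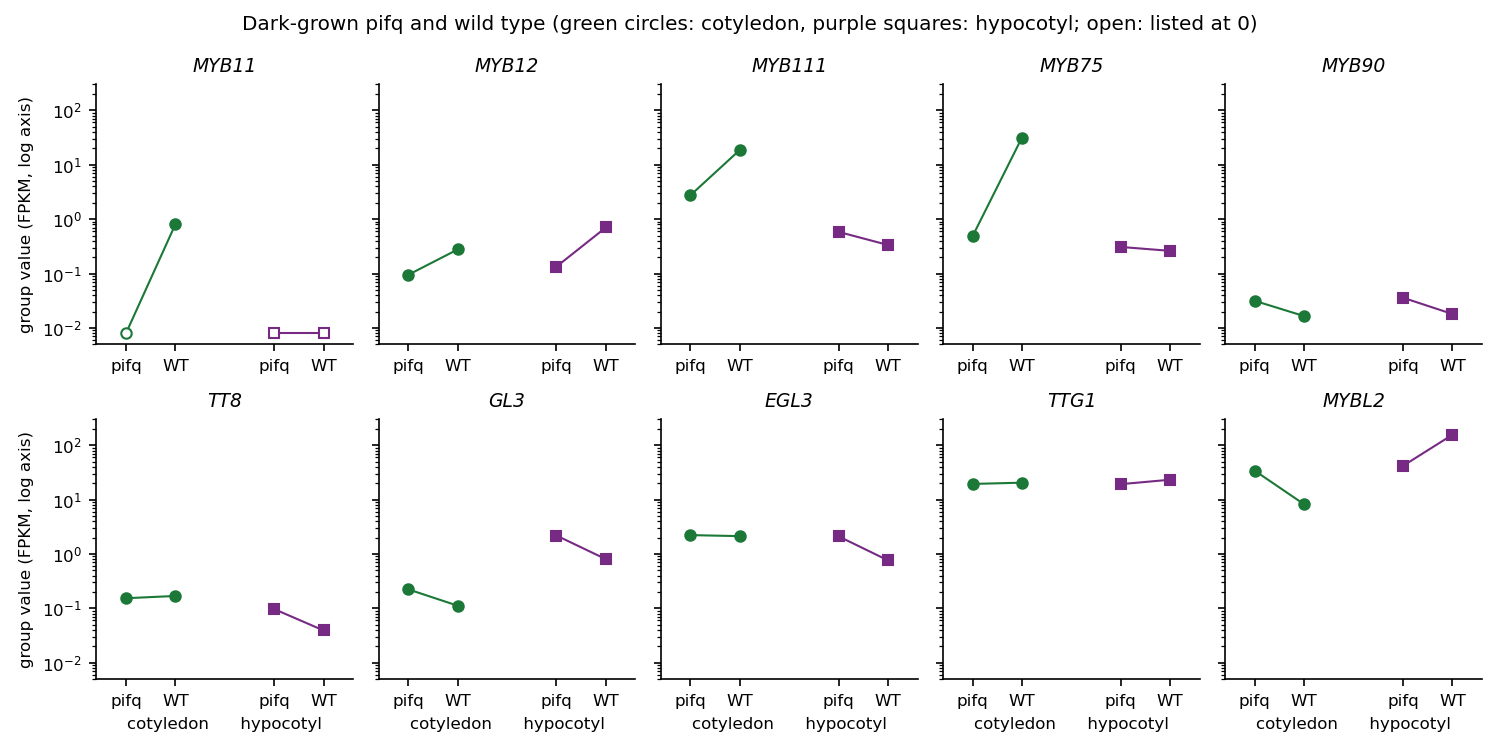
Group values in FPKM on a log axis for the 10 regulators in dark pifq (left of each pair) and dark wild type (right of each pair), green circles for cotyledons and purple squares for hypocotyls, open symbols where listed at 0; each point is 1 deposited value. MYB75 in cotyledons shows 0.486 FPKM in pifq beside 31.7 FPKM in wild type, and MYBL2 slopes opposite ways in the organs.

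Of the early enzyme genes, 7 of 11 tested were lower and none higher in pifq cotyledons, with a median log2 ratio of -1.65 beside -0.03 for all tested genes. CHS had 16.3 FPKM in pifq and 382 FPKM in wild type, F3H had 1.51 FPKM in pifq and 39.7 FPKM in wild type, and FLS1 had 4.56 FPKM in pifq and 23.6 FPKM in wild type. Of the late genes 6 of 10 tested were lower, where 5.66% of all tested genes were. Among them was LDOX, at 0.149 FPKM in pifq and 1.43 FPKM in wild type. HY5 and HYH were lower too, at 10.6 and 21.7 FPKM in pifq cotyledons against 133 and 138 FPKM in wild type. In pifq hypocotyls 3 of 10 tested early genes were lower and 2 higher, where 14.5% and 13% of all tested genes were. Their median log2 ratio was -0.21, beside -0.03 for all tested genes. CHS there had 0.112 FPKM in pifq and 1.68 FPKM in wild type, and UGT78D1, a flavonol glycosyltransferase, had 11.9 FPKM in pifq and 1.11 FPKM in wild type. HY5 and HYH were not called in pifq hypocotyls. MYC1 was higher there, at 8.60 FPKM in pifq and 0.417 FPKM in wild type.

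Of 6 trichome and root hair partners and targets of GL3, EGL3 and TTG1, SIM, an inhibitor of cell division in trichomes, was lower in 5 of the 6 comparisons, for example at 67.3 FPKM in pifq hypocotyls and 352 FPKM in wild type hypocotyls. Its calls in cotyledons at 1 h and hypocotyls at 6 h were lost with a normal p from the deposited statistic, which leaves 3. WER, a root MYB that partners GL3, was higher in hypocotyls at 6 h of light, at 5.33 FPKM against 2.65 FPKM in the dark, and in pifq hypocotyls, at 6.73 FPKM against 3.01 FPKM in wild type; the 6 h call was lost under that alternative, and both calls at a q-value threshold of 0.01. Root markers were mixed: in hypocotyls 2 of 6 tested were higher at 1 h and 3 of 5 lower at 6 h. Of all tested genes 10% were higher at 1 h and 22% lower at 6 h there.

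Across the 8 group values, the genes with patterns most like each abundant member's were found by Pearson's r of log2(FPKM + 1), over 16385 genes of at least 5 FPKM in some group; light, organ and genotype are shared by the 8 points, and r is a description. For MYB12 the nearest was SDHAF2 (r = 0.99), then SDH1-1 and GR1 (both 0.99). SDHAF2 had 25.9 FPKM in dark cotyledons, 94.2 FPKM after 1 h and 42.4 FPKM after 6 h, and 35.5, 216 and 301 FPKM in hypocotyls at these times. For MYB111 the nearest were SUVH9, G-TMT and AT2G30150 (0.99, 0.99 and 0.98). For MYB75 they were ATMG00070, FP3 and AT5G54165 (0.98, 0.97 and 0.96), for TTG1 PRA1.B1, AT5G66120 and AT5G14105 (0.98, 0.97 and 0.97), and for MYBL2 cICDH, PRA1.G2 and AT5G05520 (0.98, 0.97 and 0.97). Pearson's r takes no account of the size of a change. Over the 8 groups MYB75 ran from 0.249 to 121 FPKM, AT5G54165 from 0.941 to 69.7 FPKM and ATMG00070 only from 5.08 to 10.6 FPKM. MYB111 ran from 0.301 to 68.1 FPKM and SUVH9 only from 9.83 to 19.6 FPKM.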

How the data were processed

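Per the labels' protocols, mRNA was sequenced (Illumina). TopHat, Cufflinks and build TAIR10 are named per the submitters' processing notes, without versions. Each of the 6 tables the authors deposited holds FPKM per group, a test statistic (a score) and p-values and q-values; FPKM is taken from the layout and the Cufflinks note, as the header names no unit. Ratios were computed here as log2 of the deposited FPKM values, light over dark or pifq over wild type. The SE is the absolute log2 ratio over the absolute statistic. The mutant tables carry the opposite sign in their statistic, so directions come from the FPKM values. Their wild type columns exceed the dark columns of the light tables by a median log2 of 0.09 in cotyledons and 0.08 in hypocotyls, and the labels do not state which samples they hold. In the light tables the smallest deposited p is 5e-05, the normal score of the p exceeds the statistic by a median factor of 1.69 to 1.71, against 1 in the mutant tables, and the q-value is not the adjustment within a table. Differences between organs and times used a two-sided normal p on the difference of log2 ratios. It was adjusted by Benjamini-Hochberg over all genes tested in both tables. Both times share the dark values, and the SE ignores this, which makes the test between times conservative. With only group values no exact test over samples could be run, so the normal p is an approximation and its values are not printed. The test was run on simulated data with noise drawn from the same recovered SEs. That run cannot show whether these SEs are right for the data. Members and gene lists were chosen with earlier results of these data known. Named list genes were the 2 called genes of largest ratio per list and direction at 1 FPKM or more, plus a set of pathway genes and regulators; others named here illustrate a count and were chosen after their values were seen. Python 3.11.15, pandas 2.3.3, scipy 1.17.1 and Biopython 1.88 were used.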

Additional observations from a re-analysis of the deposited data

Results flagged for a closer look

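The responses of 3 members differed between cotyledons and hypocotyls by a test of the difference itself. After 6 h of light MYB12 differed by -3.82 and MYBL2 by 3.52 (cotyledon minus hypocotyl, log2). In pifq MYB111 differed by -3.57 and MYBL2 by 3.96. MYB12 no longer passed when SEs were taken from the deposited p-values, but its hypocotyl p is the smallest in that table, which limits that SE. Where 1 FPKM was required MYB111, at 0.583 FPKM in pifq and 0.335 FPKM in wild type hypocotyls, was not tested. This left MYBL2 as the member that differed in pifq. In hypocotyls the elongating hypocotyl markers summed to 75.1 FPKM after 6 h of light and 1071 FPKM in the dark, and their part in the 6 h differences was not tested. The sums of the elongating hypocotyl markers in cotyledons stood at 93.0 FPKM in pifq and 21.2 FPKM in wild type, and their part in the pifq differences was not tested.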

How the results depend on the processing

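No paired analysis was possible because the tables hold 1 value per group and no replicate values; for the same reason no replicate could be left out. Of 459 member values under alternatives, 403 stayed on their side of the threshold or, where no test was run, moved by less than 1 SE. Of the others, 26 lost a call, 1 gained one and 29 moved by more than 1 SE. Reversals of a called value numbered 0. All 29 moved with 1 FPKM added to both groups; the ratio of MYB12 in cotyledons at 1 h, for example, was then 2.93, beside 5.17 without it. With a q-value threshold of 0.01, members higher fell to 3 in cotyledons at 6 h and 0 in pifq hypocotyls, and members lower to 1 in pifq hypocotyls. With a normal p from the deposited statistic, centred or not, members higher in cotyledons at 6 h were 4 and members lower at 1 h were 0 in both organs; TTG1, EGL3 and MYB11 were the calls lost at 6 h, and MYB11 in cotyledons and MYB111 in hypocotyls were lost at 1 h. TT8 in hypocotyls was lost at 0.01 at both times and, with the adjustment within the table, at 1 h. Requiring 1 FPKM left 1 member lower in pifq hypocotyls and 1 that differed between organs in pifq. At an adjusted p of 0.01, 1 member differed between 6 h and 1 h in cotyledons. The cause of these changes was not tested. With the dark columns of the light tables as wild type, an alternative chosen after seeing the data, all 11 pifq ratios moved by less than 1 SE. Depth is unknown, so members near 0 FPKM (MYB90, TT8 and MYB11) cannot be called absent.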
